A study of Mus musculus with 9 samples.

Results

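The response of Hbxip knockout (KO) embryonic stem cells to the loss of LIF was measured by RNA-seq, with 2 KO libraries taken after 96 h without LIF set against 2 KO libraries taken from pluripotent culture. These are 4 of the 9 libraries of the study, and they were chosen by title and condition in the labels, with no measured value entering the choice. All 4 came from mouse E14 cells, an embryonic stem line of the 129 strain, with genotype Hbxip-/-, so both groups carry the deletion and differ in culture. Wild-type (WT) E14 cells of the same strain gave 1 library in each culture and serve here to show where the KO response differed from that of WT cells. The embryoid body libraries that the study also holds are not compared here, but enter the filter on low values and the fit. The labels do not give the culture medium, the part of Hbxip that was targeted, or whether libraries 1 and 2 of a group are separate clones or cultures, so the p-values measure the spread between these libraries, which may be technical.

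LIF is the cytokine that holds mouse embryonic stem cells in the naive state. It binds the LIF receptor together with gp130 and activates JAK kinases, which phosphorylate STAT3, and STAT3 in turn switches on Socs3, Klf4, Tfcp2l1 and other genes. When LIF is removed the naive factors decline, the cells pass through a formative state marked by Otx2, Fgf5 and Pou3f1, and genes of the primitive streak and the germ layers follow. Hbxip, now named Lamtor5, encodes a subunit of Ragulator, the complex that holds the Rag GTPases on the lysosome. There amino acids activate mTORC1, and the folliculin complex controls whether the transcription factors TFEB and TFE3, which drive lysosomal genes, are kept out of the nucleus.

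After LIF withdrawal the KO cells lost most of the transcripts of the direct LIF targets Socs3, Bcl3 and Junb, whereas the naive factors Klf4, Tfcp2l1 and Esrrb fell by 0.61, 0.79 and 0.36 on the log2 scale. Formative genes rose, among them Otx2, Lef1 and the DNA methyltransferase gene Dnmt3a, but Pou3f1 did not pass the test. The streak genes T, Fgf8, Sp5 and Wnt3 had at most 8 counts in any of the 4 libraries. Genes of glycolysis and of the hypoxia response were called higher more often than the average gene, and genes of the lysosomal membrane, of antigen presentation and of the cytosolic ribosome were called lower more often, although the falls of the ribosomal and the lysosomal membrane genes shrank when gene length was taken into account.

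**Figure D1:**
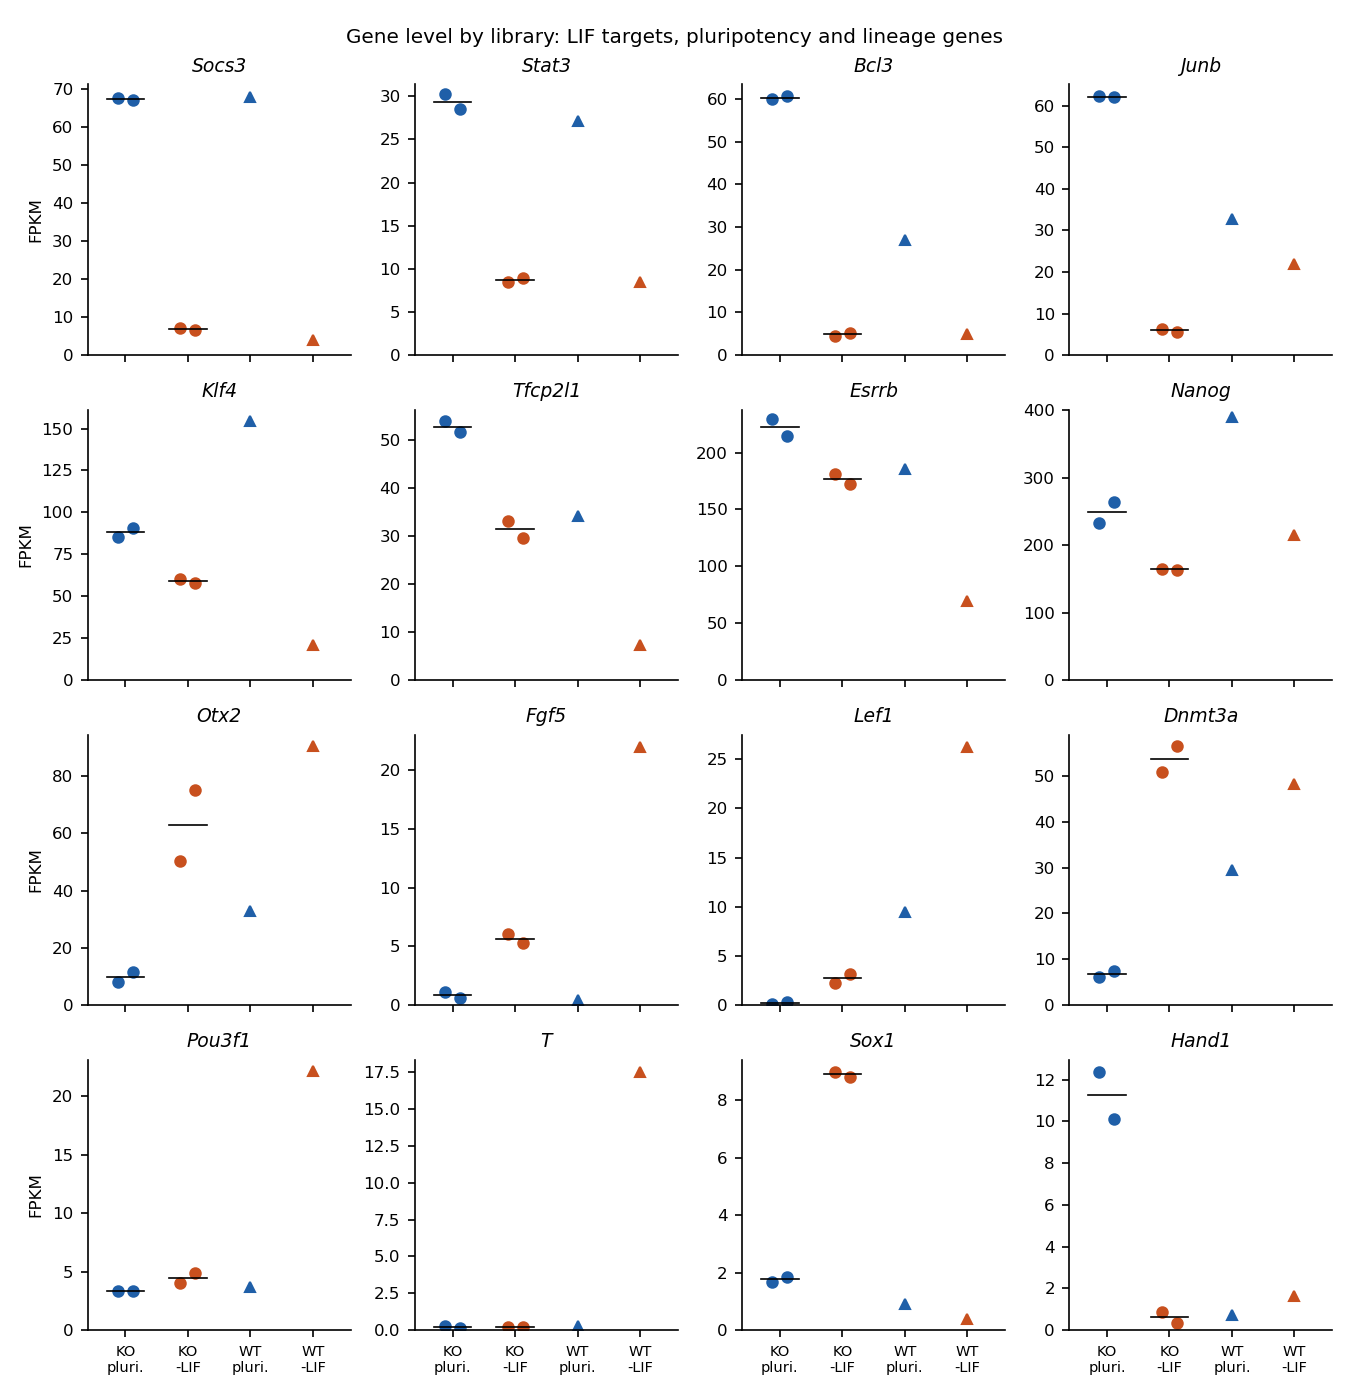
FPKM of 16 genes in each library (y axis, linear from 0) for KO pluripotent, KO LIF withdrawal, WT pluripotent and WT LIF withdrawal cells; circles are KO libraries with their mean as a line, triangles the single WT libraries. Socs3, Stat3 and Bcl3 were low without LIF in both genotypes, whereas Klf4, Tfcp2l1 and Esrrb stayed higher in the KO than in the WT library without LIF, and T and Pou3f1 were high in the WT library without LIF alone among those drawn.

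Library sizes were even, from 10147301 to 10863866 counts over the 9 libraries, and a count of 0 allows up to 3 counts, worth 0.276 to 0.296 CPM, the counts scaled to library size. Intervals and such limits cover counting error only. Each gene was tested with edgeR's quasi-likelihood test on the estimated counts, 13990 genes in all, and was called where the Benjamini-Hochberg adjusted p over all of them lay below 0.05. Values after ± are standard errors (SE) derived from the test's F, with 2 libraries a KO group. In differences from WT, each WT group had 1 library. A change is a log2 fold change of LIF withdrawal over pluripotent culture unless another scale is named. Levels are in FPKM, which is scaled by gene length and library size. Hbxip itself was read in every KO library, at 31.0 and 29.1 FPKM in pluripotent culture and 16.2 and 15.5 FPKM after withdrawal (-0.96 ± 0.14, adjusted p = 7.3e-05; -0.48 length-corrected). These per-gene values do not check the knockout, which rests on the labels. The 8 markers chosen for embryonic stem cells were present throughout, with summed levels of 3515 and 3807 FPKM before and 3483 and 3290 FPKM after withdrawal. Marker sums for fibroblasts or feeder cells were 18.6 and 23.4 FPKM before and 7.67 and 10.1 FPKM after, most of it Thy1. Pdgfrb was at 1.74 and 2.25 FPKM before and 1.61 and 2.32 FPKM after, while Postn was at 0 in all 4 libraries and Col3a1 reached at most 0.02 FPKM. In bulk RNA, fewer cells of a type and less RNA per cell cannot be told apart.

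The response was broad. Of the genes tested, 4227 were called higher (30.2%) and 4053 lower (29.0%), and these shares are the background against which the lists below are read. A change of at least 2-fold was called for 1448 genes upward (10.4%) and 981 downward (7.01%), and in 2424 of these 2429 the FPKM values of the groups did not overlap, as they did not in 78.8% of all genes tested. The median size of a called change was 0.68, and the median change of all genes tested was 0. On the first principal component, which held 51.5% of the variance of the 9 libraries, the KO pluripotent libraries lay at 86.5 and 74.5 and the KO libraries without LIF at 11.5 and -1.20, with all others between -64.5 and -11.4.

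Gene length moved with the comparison. Across the genes tested, the change in KO cells rose with gene length, with a Spearman rho of 0.43, compared with 0.18 for the WT response and with -0.046 and -0.147 for the differences between replicates 1 and 2 in pluripotent culture and after withdrawal. Genes are not independent replicates, so these are descriptions. In the shortest of 10 equal bins of genes, of 53 to 997 bases, the median change was -0.56, with 4% called higher and 48.0% lower. In the longest bin, of 5813 to 83437 bases, it was 0.56, with 71.0% called higher and 8.65% lower. Genes under 1000 bases took 12.4% and 12.3% of the counts of the KO pluripotent libraries and 8.65% and 8.14% after withdrawal, whereas in WT cells the share was 9.47% before and 9.69% after. The part of RNA quality, library preparation or transcription in this trend was not tested. A second fit with an offset for gene length in each library brought rho to 0.026 and called 3428 genes higher (24.5%) and 3508 lower (25.1%). Its value is given below as length-corrected where, for a gene chosen by the naming rule, it makes or ends a call, turns a direction or moves a called change by over 1.5 times. For lists it is given where a count of called KO changes moved by 2 or more. Differences from WT for genes and lists are given without this offset.

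**Figure D2:**
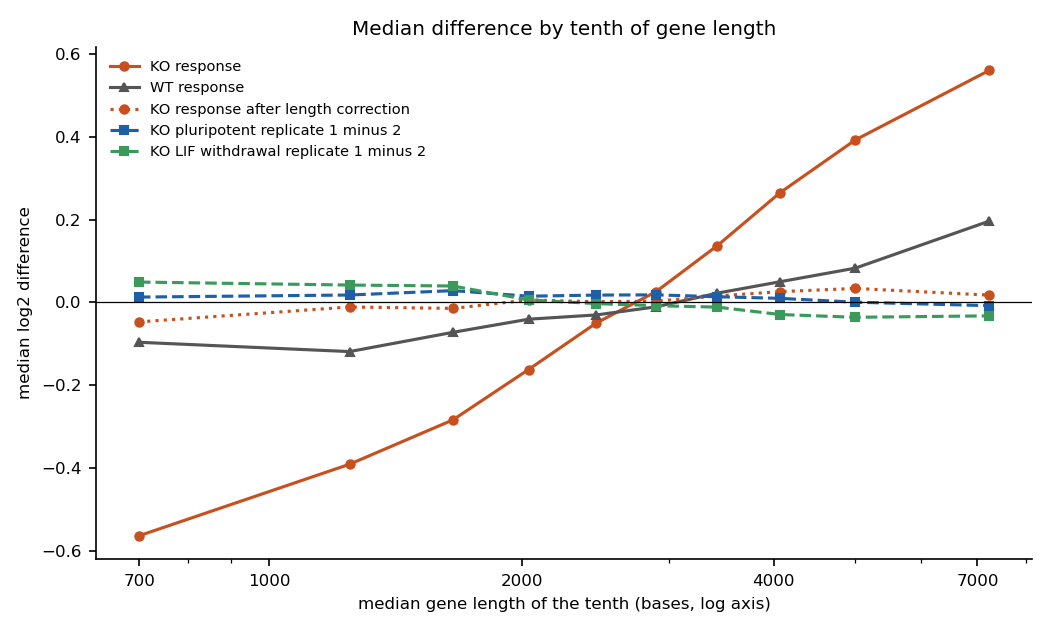
Median log2 difference (y axis) of the 1399 genes in each of 10 bins of gene length, against the median length of the bin in bases (x axis, log scale), for the KO and WT responses, the KO response after length correction, and the replicate differences of both KO groups. The KO response climbs from -0.56 in the shortest bin to 0.56 in the longest, the WT response from -0.10 to 0.20, and the replicate differences stay near 0.

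For genes with several annotated transcripts, the length itself is an estimate that differs between libraries. Of 4291 such genes listed in all 4 libraries, 135 had an estimated length at least 1.1-fold longer after LIF withdrawal and 59 a shorter one, whereas between the pluripotent replicates the numbers were 59 and 65. Sall4, a zinc-finger factor of the pluripotency network, is one of the genes whose call depended on the fit. Its estimated length was 3831 and 3704 bases in the KO pluripotent libraries and 5094 and 5095 bases after withdrawal. Its counts gave a rise of 0.39 ± 0.06 (adjusted p = 0.00026), while its level of 79.0 and 83.2 FPKM before and 80.0 and 80.1 FPKM after overlapped, and with limma on FPKM the change was -0.02. With the length correction, which uses 1 length per gene, it was 0.08 (adjusted p = 0.31).

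Outside microRNA hairpin entries, the largest rises were in receptors, transcription factors and secreted proteins. Enpp3, a cell-surface ectonucleotidase, went from 1.43 and 1.46 FPKM to 37.5 and 37.1 FPKM (4.65 ± 0.17, adjusted p = 1.5e-09), against 2.07 and 5.22 FPKM in the WT libraries. Lrp2, the endocytic receptor megalin, rose from 0.26 and 0.38 FPKM to 5.67 and 6.15 FPKM. Fgf15, a fibroblast growth factor, rose from 0.80 and 1.25 FPKM to 16.2 and 20.2 FPKM. The zinc-finger gene Zic2 rose from 1.20 and 2.50 FPKM to 23.3 and 33.2 FPKM, and the zinc-finger gene Sall2 rose from 0.38 and 0.29 FPKM to 5.09 and 5.37 FPKM. Ucma, a secreted cartilage matrix protein, rose from 0.14 and 0.37 FPKM to 5.53 and 6.20 FPKM. In the pluripotent WT library each of these genes was higher than in either KO pluripotent library. Lrp2, Fgf15, Zic2 and Sall2 stood there at 3.98, 19.2, 37.5 and 4.32 FPKM, Enpp3 at 2.07 FPKM and Ucma at 0.62 FPKM. The naming rule required that the KO groups did not overlap.

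Among the largest falls were S100a6 and several surface or secreted proteins that the pluripotent KO cells carried at high levels. S100a6, a calcium-binding protein, fell from 107 and 94.7 FPKM to 1.20 and 1.06 FPKM (-6.49 ± 0.20, adjusted p = 6.1e-10). Msln, the surface protein mesothelin, went from 21.4 and 18.5 FPKM to 0.13 and 0.22 FPKM, and Pla2g7, a secreted phospholipase, from 84.2 and 83.0 FPKM to 2.03 and 2.35 FPKM. Ly6a, the surface antigen Sca-1, fell from 41.4 and 34.2 FPKM to 1.30 and 0.71 FPKM, and the connexin gene Gjb5 from 21.0 and 19.3 FPKM to 0.38 and 0.92 FPKM. The pluripotent WT library held 22.0 FPKM of S100a6, 0.44 of Msln, 4.07 of Pla2g7, 2.55 of Ly6a and 9.89 of Gjb5, each below both KO pluripotent libraries.

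Some of the extreme values belong to features whose reads are hard to assign. H2ac24, a replication-dependent histone gene with near-identical copies, had 342 and 289 counts in the pluripotent KO libraries and none after withdrawal, which makes it at least 222-fold lower against a floor of 3 counts over the group. Alms1-ps2, a pseudogene, went from 66 and 60 counts to none, at least 44.3-fold lower, a call that DESeq2 did not make. Rsc1a1, which overlaps another gene, went from 512 and 400 counts to 0 and 2. The microRNA hairpin entries Mir8114, Mir1306, Mir7011, Mir5113 and Mir295 also met the rule for the largest changes. They rest on at most 47 counts per library in short hairpin features, and DESeq2 called none of them.

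Among the genes of LIF reception, Stat3 fell while the receptor chains moved in different directions. Stat3, the transcription factor that carries the LIF signal, went from 30.3 and 28.5 FPKM to 8.49 and 8.94 FPKM (-1.79 ± 0.08, adjusted p = 1.1e-08), and in WT cells from 27.1 to 8.48 FPKM. Il6st, which encodes gp130, rose from 8.01 and 8.65 FPKM to 13.1 and 16.1 FPKM (0.77 ± 0.10, 0.37 length-corrected). Cntfr, a receptor chain for a related cytokine, fell from 43.3 and 42.9 FPKM to 29.3 and 26.8 FPKM (-0.65 ± 0.08, adjusted p = 3.3e-05). Lifr, the LIF receptor gene, stood at 9.89 and 11.9 FPKM before and 13.9 and 14.3 FPKM after, a rise of 0.28 on counts that was lost without pluripotent replicate 1 (0.19) and turned to -0.30 when length-corrected. Of the 17 genes of this list that were tested, 4 were called higher and 6 lower, or 1 and 8 when length-corrected, and their median change of 0.00 became negative, down to -0.21, in 9 of the alternatives, among them the fits without pluripotent replicate 2, without withdrawal replicate 1 and without withdrawal replicate 2.

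Most STAT3 target genes fell, several of them steeply. Socs3, the feedback inhibitor of JAK, was at 67.5 and 67.1 FPKM before and 7.19 and 6.56 FPKM after withdrawal (-3.33 ± 0.09, adjusted p = 2.1e-10), and the WT libraries held 68.0 and 4.03 FPKM. Bcl3, an IkB-family cofactor, fell from 60.0 and 60.6 FPKM to 4.57 and 5.13 FPKM (-3.67 ± 0.12). Junb, an AP-1 subunit, fell from 62.3 and 62.2 FPKM to 6.33 and 5.57 FPKM, whereas it went from 32.8 to 21.9 FPKM in WT cells, and the responses differed by -2.87 ± 0.18 (adjusted p = 1.3e-06). Pim3, a kinase gene, fell from 117 and 113 FPKM to 49.8 and 49.1 FPKM, while its relative Pim1 rose from 45.4 and 48.6 FPKM to 81.9 and 82.4 FPKM. Pramel7, a LIF-induced gene, fell from 4.31 and 4.24 FPKM to 0.25 and 0.35 FPKM. Of the 13 members tested, 8 were called lower, 6 of them at least 2-fold, and 3 higher, with a median of -0.79.

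Several naive pluripotency factors fell less in KO than in WT cells. Klf4, a Kruppel-like factor downstream of STAT3, was at 85.6 and 90.5 FPKM before and 60.3 and 58.0 FPKM after (-0.61 ± 0.09, adjusted p = 0.00011). In WT cells Klf4 went from 155 to 21.1 FPKM, and the responses differed by 2.24 ± 0.16 (adjusted p = 4.2e-06), which assumes, as do all WT values here, that the single WT libraries vary like the KO pairs. Tfcp2l1 fell from 53.9 and 51.5 FPKM to 33.2 and 29.5 FPKM, against 34.1 to 7.19 FPKM in WT cells, with a difference of 1.43 ± 0.15. The KO change of Tfcp2l1, -0.79, was -1.38 when length-corrected, and that of Esrrb, -0.36, became -0.61. The orphan receptor gene Esrrb went from 230 and 215 FPKM to 182 and 172 FPKM in KO and from 186 to 69.5 FPKM in WT cells, a difference of 1.03 ± 0.13. Tbx3, a T-box factor, was at 87.5 and 87.7 FPKM before and 81.8 and 85.1 FPKM after (-0.10 ± 0.07, adjusted p = 0.23), which was called lower when length-corrected (-0.42, adjusted p = 0.00053), and at 104 and 37.5 FPKM in WT cells.

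Klf2 went the other way, with a larger fall in KO. It dropped from 427 and 453 FPKM to 203 and 182 FPKM (-1.23 ± 0.08), compared with 284 to 201 FPKM in WT cells, and the responses differed by -0.75 ± 0.13 (adjusted p = 0.0012). Nanog fell from 233 and 265 FPKM to 164 and 164 FPKM (-0.56 ± 0.10), a response for which the difference from WT did not pass the test (0.27 ± 0.17, adjusted p = 0.23). Of the 20 naive genes tested, 11 were called lower and 4 higher, or 9 and 4 when length-corrected, with a median of -0.25, which became 0.03 after quantile normalization, and the median of the WT response was -0.88. The difference between the responses was positive for 12 members and negative for 1, beside 17.5% and 14.9% of all genes tested.

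The general pluripotency genes rose more often than they fell. Sox2 increased from 170 and 186 FPKM to 236 and 267 FPKM (0.47 ± 0.07, adjusted p = 0.00017), whereas it went from 282 to 192 FPKM in WT cells. The RNA-binding protein gene Lin28a rose from 42.9 and 47.2 FPKM to 99.7 and 95.1 FPKM (1.08 ± 0.08). Pou5f1, which encodes Oct4, was at 818 and 895 FPKM before and 709 and 648 FPKM after. Its fall of 0.34 on the log2 scale was lost with the length correction (0.02) and with quantile normalization (0.08). Tdgf1, the Nodal co-receptor Cripto, fell from 610 and 720 FPKM to 412 and 480 FPKM. Of 12 members tested, 8 were called higher and 3 lower, or 7 and 1 when length-corrected.

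Formative and primed epiblast genes gave the highest median of all lists, 2.67 over 16 genes tested. Otx2, the homeobox factor that opens formative enhancers, rose from 7.94 and 11.5 FPKM to 50.3 and 75.2 FPKM (2.67 ± 0.18, adjusted p = 2.1e-07), below the 90.4 FPKM of the WT library without LIF. Dnmt3a, a de novo DNA methyltransferase, rose from 6.07 and 7.38 FPKM to 51.0 and 56.5 FPKM (2.94 ± 0.10). Lef1, the WNT effector, rose from 0.08 and 0.26 FPKM to 2.28 and 3.19 FPKM, still below the 9.47 FPKM of the pluripotent WT library and the 26.2 FPKM of the WT library without LIF. Zic5 rose from 0.89 and 1.03 FPKM to 8.67 and 10.9 FPKM. Fgf5, the standard marker of this state, rose from 1.11 and 0.63 FPKM to 6.04 and 5.29 FPKM (2.68 ± 0.25) while it went from 0.42 to 22.0 FPKM in WT cells, and the responses differed by -2.95 ± 0.52 (adjusted p = 0.0013). Pou3f1, the POU factor Oct6, stood at 3.34 FPKM in both libraries before and 4.05 and 4.86 FPKM after (0.38 ± 0.20, adjusted p = 0.13), against 3.67 and 22.2 FPKM in WT cells. Dnmt3b was at 37.3 and 34.3 FPKM before and 38.7 and 34.9 FPKM after, while the WT libraries held 41.3 and 128 FPKM, a difference of -1.64 ± 0.16 (adjusted p = 3.2e-05). The KO change of Dnmt3b, 0.02, turned to -0.22 when length-corrected and was called in neither fit. In all, 11 members were called higher, 10 of them at least 2-fold, and 1 lower.

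The streak genes T, Fgf8, Sp5 and Wnt3 were at or near the limit of detection in KO cells in both cultures. T, the founding T-box gene Brachyury, had 6 and 3 counts before and 4 and 4 after withdrawal, 0.28 and 0.14 against 0.18 and 0.18 FPKM, whereas the WT libraries held 0.28 and 17.5 FPKM. Fgf8 had between 2 and 8 counts in the KO libraries and stood at 0 and 10.7 FPKM in WT cells. The WNT target Sp5 had 1 and 4 counts before and 0 and 1 after, and the ligand gene Wnt3 had at most 3. In the WT library without LIF these genes stood at 5.65 and 5.41 FPKM. Changes of these 4 genes in KO cells were not detectable at this depth. Eomes, a T-box gene of the streak and of trophoblast, did rise in KO cells, from 2.58 and 3.01 FPKM to 10.4 and 14.2 FPKM (2.11 ± 0.14), against 5.10 to 21.6 FPKM in WT cells. Of 14 streak genes tested, 2 were called higher and 2 lower in KO, and the difference from WT was negative for 7 and positive for 1. Cdx1 fell from 11.1 and 12 FPKM to 2.34 and 2.96 FPKM, and the EMT factor gene Snai1 from 13.1 and 13.2 FPKM to 4.46 and 6.18 FPKM.

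Genes of other lineages moved in both directions, within lists as well as between them. Sox1, an early neural factor, rose from 1.68 and 1.86 FPKM to 8.99 and 8.82 FPKM (2.30 ± 0.20), with 0.90 and 0.37 FPKM in WT cells, and Sox11 from 0.56 and 0.77 FPKM to 2.28 and 3.17 FPKM. Pax6 and Nes did not pass the test, at 0.56 and 0.87 FPKM and at 1.43 and 1.60 FPKM after withdrawal, although Nes was called lower when length-corrected (-0.42). Hand1, a bHLH factor of mesoderm and trophoblast, fell from 12.4 and 10.1 FPKM to 0.88 and 0.34 FPKM (-4.23 ± 0.30), and Krt8, a simple keratin, from 40.8 and 34.4 FPKM to 10.5 and 9.11 FPKM, where WT cells went from 14.3 to 45.9 FPKM. Among genes of extraembryonic endoderm, Amn, the partner of cubilin, fell from 22.3 and 17.5 FPKM to 0.82 FPKM in both libraries, Apoe from 1202 and 1063 FPKM to 350 and 312 FPKM, and the laminin gene Lama1 from 9.71 and 9.92 FPKM to 1.98 and 2.02 FPKM. Dab2, an endocytic adaptor, rose from 0.88 and 0.77 FPKM to 3.27 and 3.17 FPKM. The receptor tyrosine kinase genes Kit and Tek rose from 1.54 and 2.25 to 12.3 and 17.0 FPKM and from 0.44 and 0.50 to 2.31 and 2.35 FPKM.

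The counts by list read as follows. In mesoderm 2 of 12 tested genes were called higher and 3 lower, in neuroectoderm 2 of 7 and 1, in definitive endoderm 4 of 10 and 2, in extraembryonic endoderm 4 of 13 and 7, in trophoblast 3 of 13 and 5, and in fibroblast and feeder cells 1 of 4 and 2. In blood and endothelium 2 of 7 were called higher. The signs of the medians were not stable for mesoderm, definitive endoderm and blood and endothelium, where at least 1 alternative turned them. Of 9 genes of the 2-cell-like state 6 were called higher and 1 lower, with Zscan4f, a telomere regulator of that state, at 4.96 and 8.02 FPKM before and 15.6 and 20.1 FPKM after. Zscan4 copies are near-identical, so reads may be split between them. Of 13 germline genes 7 were called higher and 3 lower. Stra8, the retinoic acid target of meiotic entry, rose from 1.80 and 4.49 FPKM to 40.5 and 45.1 FPKM (3.73 ± 0.25) and went from 9.53 to 4.50 FPKM in WT cells, and Ddx4, the germ cell helicase Vasa, rose from 2.87 and 3.42 FPKM to 6.84 and 8.59 FPKM.

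Signalling genes changed at the level of ligands, receptors and feedback targets. In the WNT pathway the receptor gene Fzd7 rose from 14.9 and 14.4 FPKM to 60.4 and 59.9 FPKM (2 ± 0.07) and the feedback target Axin2 from 2.50 and 2.16 FPKM to 10.1 and 9.19 FPKM (2.01 ± 0.12), while the ligand gene Wnt6 fell from 15.3 and 14.0 FPKM to 1.93 and 1.34 FPKM. Tcf7l1, the repressor that counters naive genes, rose from 22.6 and 20.8 FPKM to 41.3 and 39.4 FPKM. Of 24 tested genes of this list 13 were called higher and 5 lower, or 9 and 5 when length-corrected. In the Nodal pathway the inhibitor and target Lefty1 rose from 17.2 and 21.1 FPKM to 59.2 and 70.6 FPKM (1.72 ± 0.11), and WT cells went from 30.3 to 89.4 FPKM (difference 0.14 ± 0.19, adjusted p = 0.62). The effector gene Smad3 rose from 0.37 and 0.55 FPKM to 2.46 and 3.6 FPKM. Of 18 tested genes there 12 were called higher and 4 lower, or 9 and 4 when length-corrected.

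In the BMP pathway a ligand gene fell, and target genes changed in both directions. Bmp4 fell from 223 and 210 FPKM to 56.6 and 46.5 FPKM (-2.1 ± 0.12, adjusted p = 5.0e-08), and went from 25.3 to 7.78 FPKM in WT cells. Id1, a BMP target and inhibitor of bHLH factors, fell from 200 and 248 FPKM to 141 and 131 FPKM, where WT cells went from 126 to 220 FPKM, a difference of -1.59 ± 0.16 (adjusted p = 3.5e-05). The KO change of Id1, -0.75, was -0.28 when length-corrected. Id2 rose from 4.69 and 6.63 FPKM to 53.4 and 64.1 FPKM (3.34 ± 0.14), and Id3 from 19.4 and 23.3 FPKM to 45.9 and 44.4 FPKM. Over 19 tested genes 8 were called higher and 6 lower, or 5 and 7 when length-corrected, and the median of 0.14 turned to -0.04 when length-corrected and to -0.11 without pluripotent replicate 1. Among FGF and ERK genes, Fgf4 rose from 44.5 and 42.5 FPKM to 78.2 and 72.8 FPKM, Spred2, an ERK inhibitor, from 16.0 and 15.1 FPKM to 47.8 and 42.9 FPKM, and the immediate-early gene Egr1 fell from 26.5 and 31.2 FPKM to 6.43 and 6.71 FPKM. The feedback gene Spry4 fell from 99.4 and 105 FPKM to 74.6 and 73.8 FPKM, against 77.3 to 18.1 FPKM in WT cells, a difference of 1.57 ± 0.12, and its KO change of -0.50 was -0.80 when length-corrected. In this list 9 of 19 were called higher and 8 lower.

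**Figure D3:**
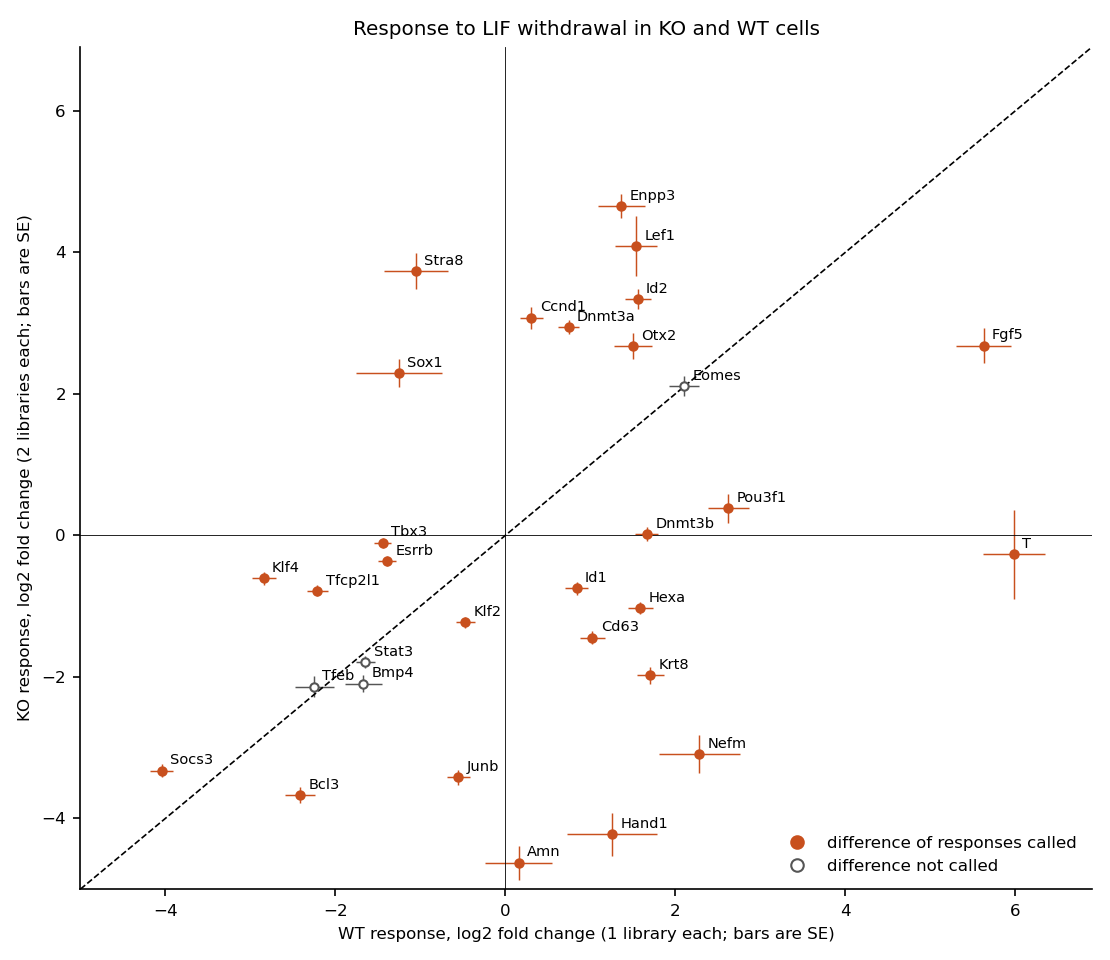
Log2 fold change after LIF withdrawal in KO cells (y axis, 2 libraries a group) against that in WT cells (x axis, 1 library a group) for 31 named genes; bars are standard errors, the dashed line marks equal responses, and filled points had a called difference of responses. Stat3, Tfeb, Bmp4 and Eomes lie near the line, Klf4, Tfcp2l1, Esrrb and Tbx3 above it with weak falls in KO cells, and Fgf5, Pou3f1, Dnmt3b and T below it.

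The difference between the KO and the WT response was called positive for 2445 genes (17.5%) and negative for 2079 (14.9%). Of the 2429 genes called at least 2-fold in KO cells, 1397 also had a called difference and 1032 did not. Among the rises, 870 had a positive difference and 20 a negative one, and among the falls 498 had a negative difference and 9 a positive one. With DESeq2 the number of called differences fell from 4524 to 2374, and with the length correction to 3835 (1932 positive and 1903 negative). The choice of genes with large KO changes favours differences of the same sign, so these counts are a description. Within the limits for naming and outside hairpin entries, the largest positive differences were those of Stra8 (4.79 ± 0.46), Tnfsfm13, Napsa, Sox1 and Actn3, and the largest negative ones those of Rsc1a1, S100a6 (-5.82 ± 0.33), Msln, Hand1 (-5.48 ± 0.62) and Nefm.

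Among lysosomal hydrolases more genes fell than rose. Hexa, the alpha subunit of beta-hexosaminidase, went from 129 and 117 FPKM to 63.6 and 60.5 FPKM (-1.02 ± 0.08, adjusted p = 6.8e-07), where WT cells went from 10.3 to 30.5 FPKM, and the responses differed by -2.61 ± 0.17 (adjusted p = 1.5e-06). Ctsa, the protective protein cathepsin A, was at 127 FPKM in both libraries before and 62.9 and 65.2 FPKM after, against 27.3 and 27.8 FPKM in WT cells. The protease gene Ctsb fell from 55.3 and 55.4 FPKM to 27.7 and 28.1 FPKM and the cholesterol carrier gene Npc2 from 67.5 and 71.1 FPKM to 43.4 and 42.0 FPKM. Of 28 hydrolases and luminal proteins tested, 12 were called lower and 5 higher, the same counts as after length correction. Among the rises, Lipa, the acid lipase, went from 2.28 and 2.39 FPKM to 4.32 and 5.46 FPKM, and Galc, a galactosidase, from 2.85 and 2.24 FPKM to 3.93 and 4.92 FPKM, both chosen after their values were seen. In this list the difference from WT was negative for 11 and positive for 1.

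In the lysosomal membrane, Cd63, a tetraspanin, fell from 271 and 249 FPKM to 103 and 92.2 FPKM (-1.45 ± 0.09) and Lamp1, the most used membrane marker, from 471 and 424 FPKM to 289 and 277 FPKM (-0.70 ± 0.08). Among subunits of the v-ATPase, the proton pump of the lysosome, Atp6v0b fell from 101 and 102 FPKM to 54.9 and 51.1 FPKM (-0.98 ± 0.08, or -0.52 length-corrected) and Atp6v0c from 130 and 117 FPKM to 62.9 and 51.8 FPKM (-1.14, or -0.73 length-corrected). Atp6v1h was at 46.9 and 45.2 FPKM before and 47.7 and 50.3 FPKM after (adjusted p = 0.60), and was called higher when length-corrected (0.21). Of 22 genes tested, 11 were called lower and 5 higher, and 7 and 3 when length-corrected, with a median of -0.24 that moved to -0.04.

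TFEB and TFE3 bind E-boxes with the core CACGTG, most strongly within TCACGTGA, so the promoter windows of 250 bases before to 50 bases after the start were searched for both, on either strand, in the RefSeq sequences of GRCm38.p6. TCACGTGA contains CACGTG and is counted under both, and it equals its own reverse complement, as does CACGTG. TCACGTGA was present for 6 of 17 membrane and v-ATPase genes with a window (35.3%) and 3 of 22 hydrolase genes (13.6%), compared with 2.15% of the 10926 tested genes with a window, and CACGTG for 47.1%, 40.9% and 11.8%. TCACGTGA was present for 1.1% of the 727 genes with a window that were called at least 2-fold lower. For those called at least 2-fold higher it was 1.47% of 1092. The windows of 4 genes are given because they carry these letters and their genes moved in different directions in the fit without length correction. Every match is in capitals. They are Ctsa (chr2:164833523-164833822, plus strand), Lamp1 (chr8:13158911-13159210, plus strand), Atp6v0e (chr17:26676146-26676445, plus strand) and Atp6v1a (chr16:44139210-44139509, minus strand).
Ctsa: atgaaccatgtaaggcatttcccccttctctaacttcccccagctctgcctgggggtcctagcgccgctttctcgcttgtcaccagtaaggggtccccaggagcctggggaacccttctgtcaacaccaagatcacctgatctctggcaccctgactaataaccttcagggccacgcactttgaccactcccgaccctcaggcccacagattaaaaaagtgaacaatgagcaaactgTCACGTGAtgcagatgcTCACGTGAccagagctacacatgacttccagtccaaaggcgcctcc
Lamp1: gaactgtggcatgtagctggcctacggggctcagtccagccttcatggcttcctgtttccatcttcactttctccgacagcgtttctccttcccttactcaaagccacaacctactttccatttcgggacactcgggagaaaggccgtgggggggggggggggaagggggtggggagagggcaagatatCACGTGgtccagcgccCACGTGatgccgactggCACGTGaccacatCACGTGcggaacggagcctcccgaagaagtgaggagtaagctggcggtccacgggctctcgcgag
Atp6v0e: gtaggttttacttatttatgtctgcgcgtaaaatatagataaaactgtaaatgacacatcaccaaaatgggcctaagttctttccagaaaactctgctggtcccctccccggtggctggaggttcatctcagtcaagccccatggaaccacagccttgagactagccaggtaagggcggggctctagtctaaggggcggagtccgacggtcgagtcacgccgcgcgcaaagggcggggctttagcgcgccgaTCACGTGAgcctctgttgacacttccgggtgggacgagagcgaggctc
Atp6v1a: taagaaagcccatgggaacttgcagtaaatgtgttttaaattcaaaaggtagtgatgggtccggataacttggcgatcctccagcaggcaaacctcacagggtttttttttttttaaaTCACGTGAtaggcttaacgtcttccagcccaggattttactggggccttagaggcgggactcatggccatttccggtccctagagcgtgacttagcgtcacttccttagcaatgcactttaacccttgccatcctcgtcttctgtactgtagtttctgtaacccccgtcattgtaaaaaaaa
Ctsa holds TCACGTGA at 2 places and fell by 1.02 on the log2 scale, Lamp1 holds CACGTG at 4 places and fell by 0.70, and Atp6v0e, a membrane subunit of the pump with 1 TCACGTGA, fell by 0.66. Atp6v1a, its catalytic subunit, also holds 1 TCACGTGA and rose by 0.34 (adjusted p = 0.0013). The changes of Atp6v0e and Atp6v1a are given without the length correction. A further Ctsa window, chr2:164832622-164832921 on the plus strand, holds neither CACGTG nor TCACGTGA. A match describes these letters and is no evidence of binding.

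**Figure D4:**
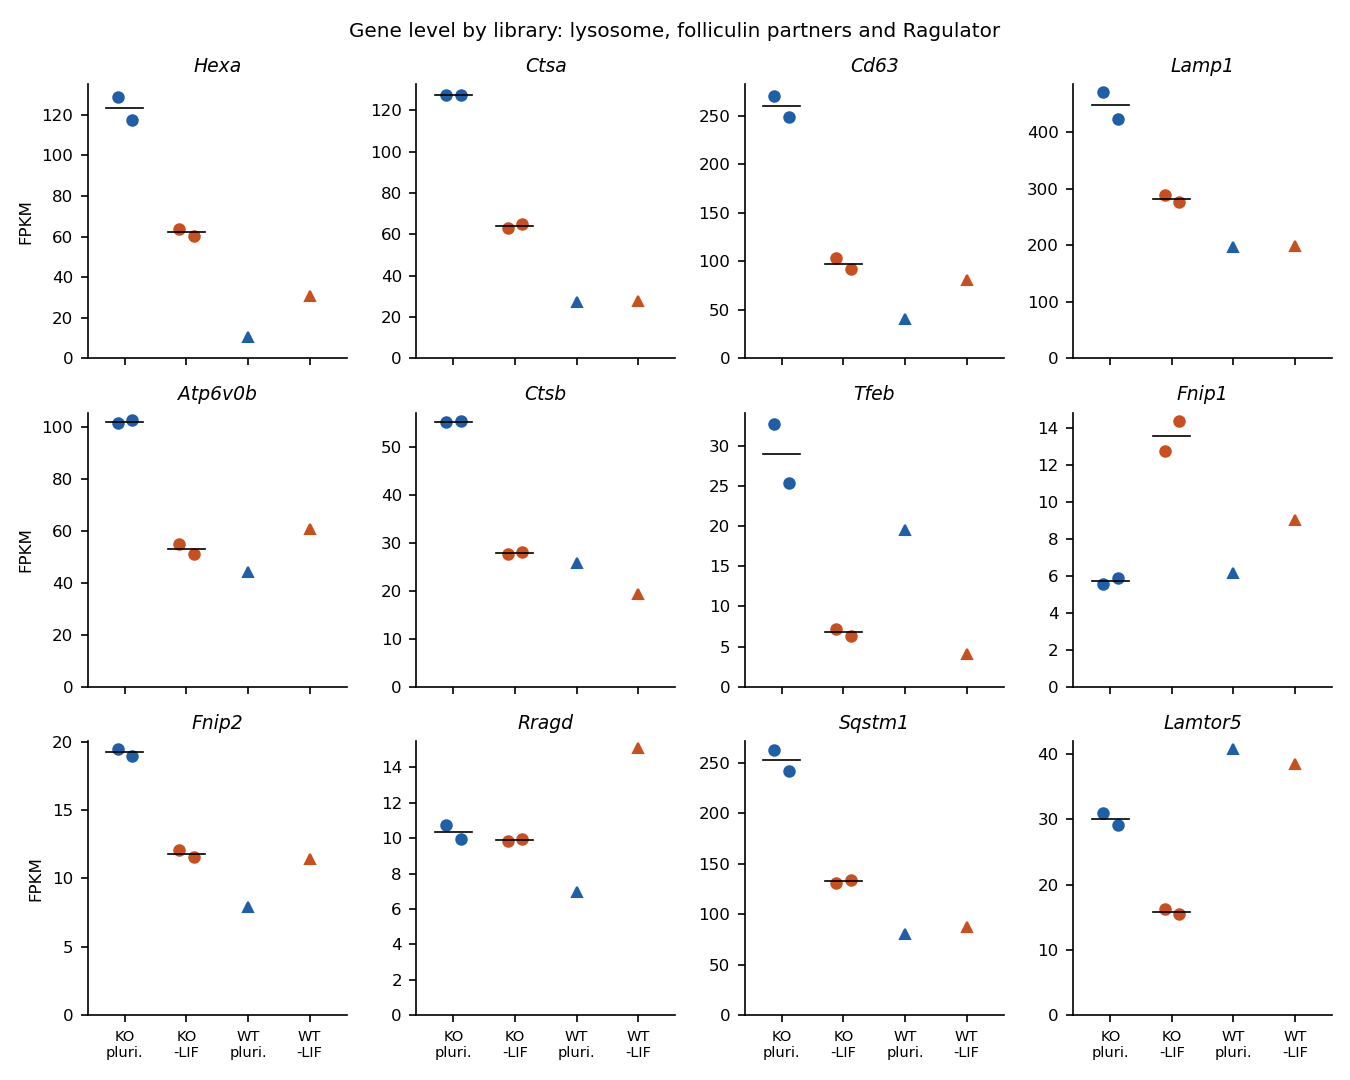
FPKM of 12 genes of the lysosome, the folliculin complex and Ragulator in each library (y axis, linear from 0), with KO libraries as circles with their mean as a line and the single WT libraries as triangles. Hexa, Ctsa, Ctsb, Cd63, Lamp1, Atp6v0b and Sqstm1 stood highest in the 2 KO pluripotent libraries and lower in the 2 KO libraries without LIF, while Fnip1 rose.

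Of the factors themselves, Tfeb fell from 32.6 and 25.4 FPKM to 7.16 and 6.36 FPKM (-2.14 ± 0.15, adjusted p = 2.1e-07), and WT cells went from 19.6 to 4.02 FPKM (difference 0.11 ± 0.28, adjusted p = 0.79). Tfe3 was at 14.9 and 16.7 FPKM before and 18.2 and 19 FPKM after (0.22 ± 0.08, adjusted p = 0.041), a call that 7 alternatives did not make, among them those without pluripotent replicate 1 (0.13), without withdrawal replicate 1 (0.20) and without withdrawal replicate 2 (0.22). The length-corrected change of Tfe3, 0.16, was not called (adjusted p = 0.13). Mitf fell from 3.67 and 5.23 FPKM to 1.87 and 2.1 FPKM, and its target Gpnmb, a lysosomal glycoprotein, from 2.01 and 1.28 FPKM to 0.12 and 0.24 FPKM. The folliculin partners parted: Fnip1 rose from 5.55 and 5.86 FPKM to 12.8 and 14.4 FPKM (1.21 ± 0.09, 0.74 length-corrected) and Fnip2 fell from 19.5 and 19 FPKM to 12 and 11.6 FPKM (-0.74 ± 0.08, -1.26 length-corrected). In WT cells Fnip2 went from 7.91 to 11.4 FPKM, and the responses differed by -1.29 ± 0.14. Over the 8 tested genes of this list 3 were called higher and 4 lower, or 1 and 5 when length-corrected.

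In Ragulator and the Rag GTPases, 5 of 9 genes were called lower and 2 higher, and 2 and 1 when length-corrected. Lamtor1, the membrane anchor of the complex, fell from 165 and 156 FPKM to 113 and 105 FPKM (-0.59 ± 0.08, -0.20 length-corrected) and Lamtor4 from 44.5 and 40.9 FPKM to 25.6 and 22.9 FPKM (-0.85 ± 0.12, -0.38 length-corrected). Rragb rose from 5.63 and 6.04 FPKM to 15.7 and 16.3 FPKM (1.42 ± 0.10). Rragd, a TFEB target, was at 10.7 and 9.94 FPKM before and 9.85 and 9.98 FPKM after (adjusted p = 0.36, but called lower at -0.46 when length-corrected), while WT cells went from 6.96 to 15.1 FPKM, a difference of -1.24 ± 0.15 (adjusted p = 0.0001). Among 23 components of the mTOR pathway, 10 were called higher and 6 lower, or 5 and 6 when length-corrected, and the median of 0.13 became -0.09. Mtor was at 11 and 10.5 FPKM before and 14.0 and 15.2 FPKM after, a rise of 0.40 that turned to -0.18 when length-corrected. Rictor, the defining subunit of mTORC2, rose from 2.74 and 2.84 FPKM to 6.09 and 6.50 FPKM (1.14 ± 0.09, 0.54 length-corrected).

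Among 22 autophagy genes, 8 were called lower and 4 higher. Sqstm1, the receptor p62, fell from 263 and 243 FPKM to 131 and 134 FPKM (-0.96 ± 0.07) and was at 80.2 and 87.2 FPKM in WT cells. Map1lc3b, the LC3 gene, fell from 106 and 111 FPKM to 76.0 and 74.3 FPKM (-0.56, -0.31 length-corrected), and Gabarap from 154 and 146 FPKM to 100 and 82.8 FPKM (-0.75, -0.33 length-corrected). Rb1cc1, a subunit of the initiating kinase complex, rose from 3.39 and 3.95 FPKM to 7.41 and 7.88 FPKM (1.02 ± 0.10, 0.51 length-corrected).

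The ATF4 list split evenly, with 10 of 29 genes called higher and 10 lower. Atf4 itself, the transcription factor of amino acid stress, fell from 148 and 137 FPKM to 66.5 and 61.9 FPKM (-1.14 ± 0.09, adjusted p = 6.6e-07), and WT cells went from 141 to 79.1 FPKM. Its targets Asns and Trib3 fell from 279 and 293 FPKM to 203 and 208 FPKM and from 5.08 and 6.33 FPKM to 3.17 and 3.19 FPKM, and the change of Asns, -0.51, was -0.32 when length-corrected. Of 7 amino acid transporter genes in the list, 3 were called higher (Slc7a3, Slc38a2 and Slc7a11) and 1 lower (Slc3a2, -0.20). Slc7a3, for cationic amino acids, rose from 8.20 and 12 FPKM to 54.7 and 54.4 FPKM (2.41 ± 0.12), and Slc38a2, for neutral ones, from 30.3 and 32.5 FPKM to 85.9 and 80.5 FPKM (1.37 ± 0.07). The ATF4 composite element TGATGCAA was present for 6 of 26 list members with a window (23.1%), against 0.741% of tested genes, and of these 6 (Atf3, Chac1, Slc7a11, Slc1a4, Vldlr and Pycr1) Chac1 was called lower, Slc7a11 higher and 4 were not called. Of 19 cytosolic tRNA synthetases 3 were called higher and 5 lower, or 3 and 8 when length-corrected, with Eprs rising from 54.1 and 54.6 FPKM to 86.7 and 89.6 FPKM (0.66, 0.32 length-corrected) and Nars falling from 103 and 100 FPKM to 76.3 and 80.0 FPKM.

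Most genes of glycolysis and of the hypoxia response rose in KO cells. Pgk1, a glycolytic kinase and HIF target, went from 269 and 390 FPKM to 600 and 765 FPKM (1.02 ± 0.14, adjusted p = 4.3e-05), Ldha from 649 and 929 FPKM to 1167 and 1257 FPKM (0.59 ± 0.12), and Pfkfb3, which makes the activator of phosphofructokinase, from 1.84 and 3.50 FPKM to 10.2 and 15.4 FPKM (2.28 ± 0.24). The lactate exporter gene Slc16a3 rose from 37.3 and 66.3 FPKM to 132 and 148 FPKM and the demethylase gene Kdm3a from 35.1 and 38.9 FPKM to 76.1 and 75.4 FPKM, with a length-corrected change of Kdm3a of 0.67. Hk2, the inducible hexokinase, fell from 38.4 and 40.2 FPKM to 22.7 and 28.9 FPKM (-0.64, -1.06 length-corrected). Vegfa, of the hypoxia list, went from 6.84 and 10.3 FPKM to 3.18 and 7.78 FPKM (-0.66 ± 0.29, adjusted p = 0.070). It was called lower when length-corrected (-0.77, adjusted p = 0.040). In WT cells Pgk1 was at 840 and 952 FPKM and Ldha at 1634 and 1662 FPKM, above all 4 KO libraries. Replicate 2 exceeded replicate 1 in both KO groups for Pgk1, Ldha, Pfkfb3, Slc16a3, Vegfa, Slc2a1, P4ha2 and Ddit4, and the part of culture differences such as density was not tested. The last 3 were called higher but lost the call without pluripotent replicate 1 (0.24, 0.67 and 0.84) or without withdrawal replicate 2 (0.26, 0.54 and 0.69). Of 17 glycolysis genes 12 were called higher and 2 lower, and of 18 hypoxia genes 11 and 1. When length-corrected the counts were 14 and 2, and 10 and 3, and the median of the hypoxia genes went from 0.67 to 0.36. Without pluripotent replicate 1 the glycolysis median went from 0.39 to 0.18 and the change of Ldha from 0.59 to 0.36, and without withdrawal replicate 2 the glycolysis median was 0.26. The difference from WT was positive for 7 of each.

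In cholesterol synthesis and uptake, 13 of 24 genes were called lower and 6 higher, or 13 and 3 when length-corrected. Pmvk, phosphomevalonate kinase, fell from 49.7 and 45.3 FPKM to 9.38 and 13.6 FPKM (-2.08 ± 0.15), Msmo1, a sterol oxidase, from 67.8 and 69.3 FPKM to 33.3 and 32.8 FPKM (-1.09 ± 0.07) and Fdps from 83.0 and 89.4 FPKM to 47.3 and 48.5 FPKM (-0.89, -0.51 length-corrected). Sqle, squalene epoxidase, rose from 33.7 and 31.9 FPKM to 40.5 and 44.2 FPKM. The master regulator gene Srebf2 was at 33.5 and 32.5 FPKM before and 37.0 and 38.5 FPKM after (0.16 ± 0.07, adjusted p = 0.079). Its change turned to -0.14 when length-corrected (adjusted p = 0.11).

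The cytosolic ribosomal protein genes were called lower in 39 of 41 cases and higher in 1, with a median of -0.56. The difference from WT was negative for 35, a count taken without the length correction. Rps16 went from 2132 and 2184 FPKM to 1277 and 1246 FPKM, Rps20 from 228 and 236 FPKM to 139 and 137 FPKM and Rplp1 from 2711 and 2723 FPKM to 1508 and 1268 FPKM. The median length of the list was 830 bases. When length-corrected its median was -0.06, with 8 called lower and 2 higher, and Rps16 changed by -0.25, Rplp1 by -0.42 and Rps20 by -0.90. Subunits of the respiratory chain that are encoded in the nucleus showed a like pattern, with 20 of 24 called lower and a median of -0.57, and 7 lower and 1 higher with a median of -0.09 when length-corrected. Cox5b fell from 486 and 493 FPKM to 288 and 289 FPKM, by 0.80 on counts and by 0.23 when length-corrected. These genes have many processed pseudogenes, between which reads may be split.

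In the nucleolar and MYC network 13 of 25 genes were called higher and 6 lower, or 8 and 3 when length-corrected. Myc rose from 33.2 and 35.3 FPKM to 63.2 and 52.0 FPKM (0.72 ± 0.10), where WT cells held 31.7 and 25.7 FPKM, and Mycl from 1.67 and 2.25 FPKM to 5.50 and 6.83 FPKM. Mycn, another MYC family member, stood at 6.81 and 7.89 FPKM before and 5.53 and 6.58 FPKM after in KO cells, below the 37.5 and 88.8 FPKM of WT cells, and its call (-0.31 ± 0.12, adjusted p = 0.046) was lost in most alternatives, among them those without pluripotent replicate 2 (-0.23) and without withdrawal replicate 1 (-0.23). The length-corrected change of Mycn, -0.29, was not called either (adjusted p = 0.073). Ncl, nucleolin, rose from 160 and 146 FPKM to 226 and 230 FPKM, a change of 0.54 that became -0.03 when length-corrected.

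The D-type cyclin genes moved in different directions. Ccnd1 rose from 1.28 and 1.98 FPKM to 12.6 and 15.6 FPKM (3.07 ± 0.15, adjusted p = 2.3e-08), still below the 51.7 and 62.7 FPKM of WT cells, and Ccnd3 fell from 272 and 265 FPKM to 136 and 118 FPKM (-1.11 ± 0.08), remaining the higher of the pair. Ccnd2 had 2 and 0 counts before and 21 and 15 after, a ratio of 17.1 with an exact 95% counting interval of 4.39 to 146. Rb1 rose from 2.30 and 2.68 FPKM to 6.30 and 6.41 FPKM and Top2a, which peaks in mitosis, from 91.2 and 83.2 FPKM to 166 and 176 FPKM (0.94, 0.56 length-corrected). Of 19 G1 regulators 8 were called higher and 4 lower, and of 20 S and M phase genes 9 and 4. Among p53 and its targets 6 of 20 were called higher and 7 lower, or 4 and 4 when length-corrected. Cdkn1a, the inhibitor p21, fell from 37.5 and 36.4 FPKM to 20.6 and 19.4 FPKM, Perp from 16.1 and 13.6 FPKM to 2.59 and 2.14 FPKM and Btg2 from 12.6 and 9.83 FPKM to 3.09 and 2.85 FPKM, while Mdm2 was at 28.1 and 27.4 FPKM before and 31.5 and 25.5 FPKM after. The change of Mdm2 was -0.055 when length-corrected, called in neither fit. Trp53 itself rose from 96.6 and 96.7 FPKM to 126 and 112 FPKM (0.26 ± 0.08, 0.49 length-corrected). The call of this rise was lost without pluripotent replicate 2 (0.24) and without withdrawal replicate 1 (0.14).

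Besides Dnmt3a, the methylation list held 5 further genes called higher and 1 lower of 9 tested, which became 2 higher in all and 1 lower when length-corrected. Dnmt1 went from 60.5 and 58.3 FPKM to 85.9 and 81.5 FPKM (0.48, or 0.09 length-corrected), and Tet1 from 22.2 and 23.4 FPKM to 30.4 and 27.7 FPKM, a rise of 0.32 that turned to -0.38. Dnmt3l, the cofactor of the de novo enzymes, stood at 648 and 630 FPKM before and 596 and 527 FPKM after, and its call of -0.22 was lost or turned in 7 alternatives. Of 22 imprinted genes 9 were called higher and 7 lower, or 7 and 6 when length-corrected, where the median went from 0.27 to -0.01. Peg3 rose from 1.93 and 1.92 FPKM to 8.26 and 8.22 FPKM (2.06 ± 0.13), beside 9.03 to 48.5 FPKM in WT cells, and H19 from 0.72 and 0.39 FPKM to 3.41 and 3.50 FPKM.

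Antigen presentation genes had a median of -0.81, with 8 of 14 called lower and 2 higher, or 7 and 1 when length-corrected with a median of -0.58. H2-Eb1, a class II chain, fell from 42.2 and 39.8 FPKM to 10.8 and 9.31 FPKM (-2.06 ± 0.14), where WT cells held 0.40 and 1.76 FPKM. B2m, the light chain of class I, fell from 128 FPKM in both libraries to 42.4 and 40.5 FPKM (-1.66 ± 0.09), and Cd74, the class II chaperone, from 12.9 and 13.2 FPKM to 4.33 and 3.91 FPKM. MHC genes are a family of similar copies, so their reads may be split.

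Adhesion and matrix genes moved in both directions. Cdh1, E-cadherin, rose from 48.3 and 52.7 FPKM to 71.7 and 72.9 FPKM (0.48 ± 0.08, 0.20 length-corrected), and the tight junction gene Tjp1 from 14.3 and 15.3 FPKM to 36.2 and 38.9 FPKM (1.31 ± 0.07, 0.80 length-corrected). Vim, the mesenchymal filament vimentin, fell from 408 and 380 FPKM to 151 and 139 FPKM (-1.47 ± 0.09), and WT cells went from 157 to 63.8 FPKM. In this list 7 of 19 were called higher and 7 lower, or 5 and 5 when length-corrected. Of 15 basement membrane genes 5 were called higher and 7 lower, or 4 and 10 when length-corrected. The receptor genes Dag1 and Itga6 rose from 31.3 and 30.5 to 88.5 and 84.3 FPKM and from 17.5 and 17.8 to 40.7 and 42.0 FPKM (for Itga6 1.19, 0.75 length-corrected), while the collagen gene Col4a1 fell from 48.1 and 43.1 FPKM to 29.3 and 30.4 FPKM (-0.65, -1.14 length-corrected). Of 15 NRF2 and glutathione genes 4 were called higher and 5 lower, or 6 and 6 when length-corrected, with Nqo1 falling from 83.7 and 70.3 FPKM to 44.0 and 25.9 FPKM. Of 4 Y-linked genes 1 was called higher, Uty, from 4.16 and 4.60 FPKM to 10.7 and 11.5 FPKM, and 1 lower, Eif2s3y, whose call was lost when length-corrected or quantile-normalized.

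**Figure D5:**
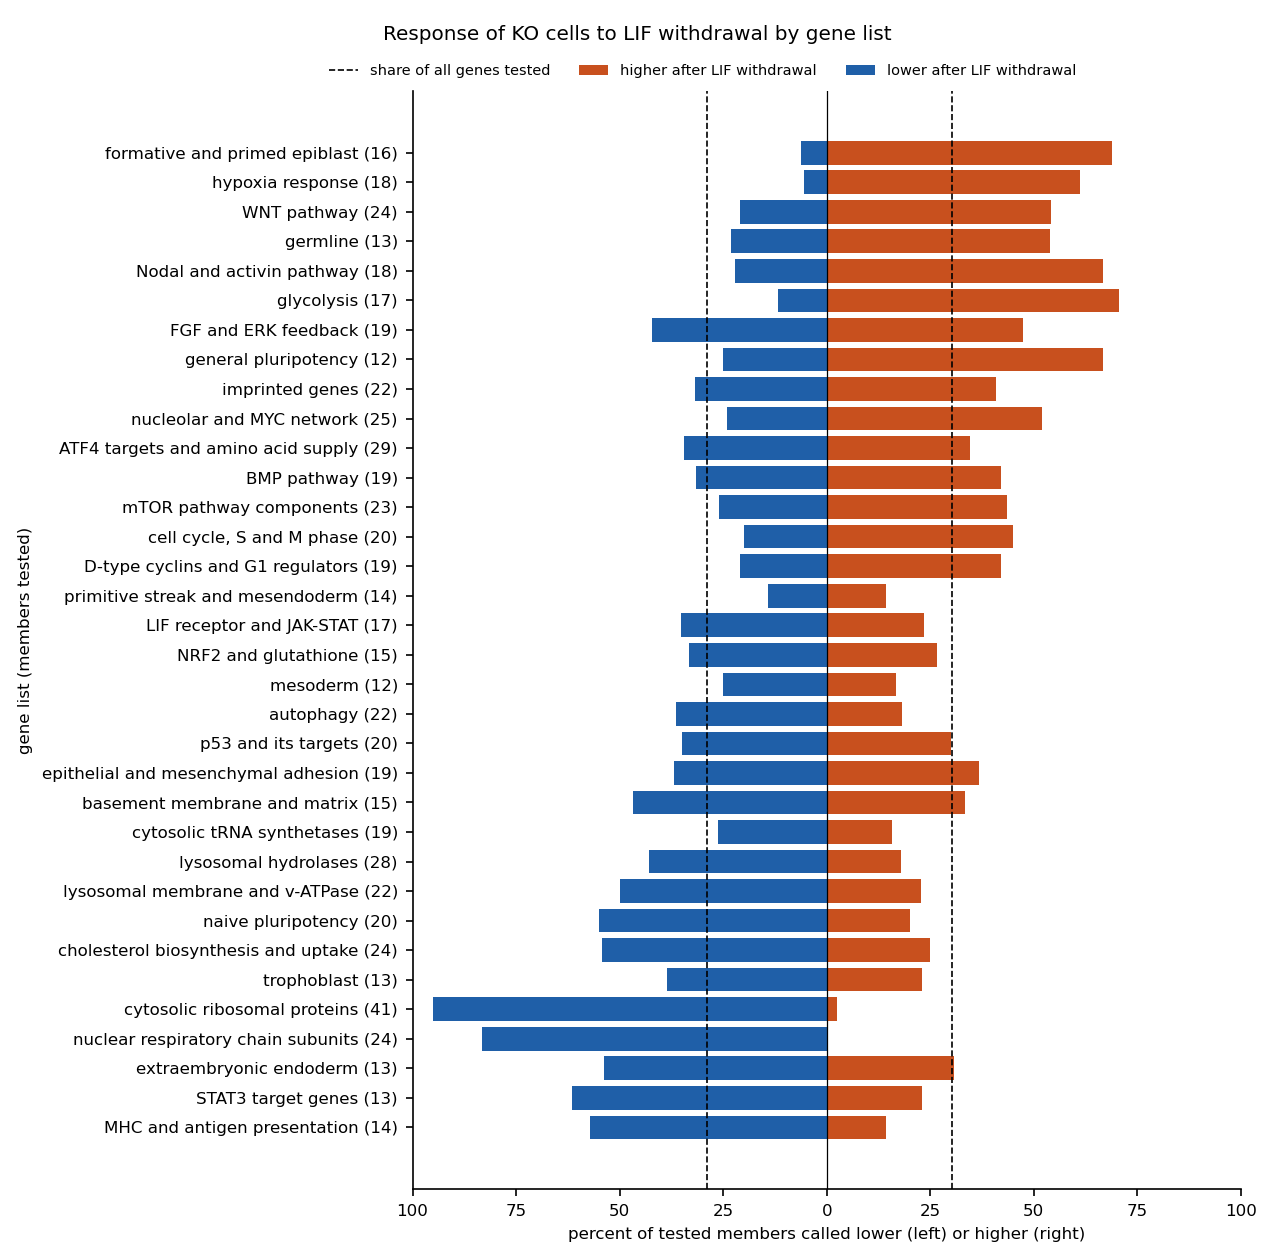
Percent of the tested members of each gene list called lower (left) or higher (right) after LIF withdrawal in KO cells, for lists with at least 12 genes tested and ordered by median change, with the number tested in parentheses. Dashed lines mark the shares among all genes tested, 29.0% lower and 30.2% higher; ribosomal protein and respiratory chain genes reach far past the left line, and glycolysis and formative genes past the right one.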

How the data were processed

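RNA was extracted with the RNeasy Mini Kit and sequenced by a standard Illumina protocol, per the labels' protocols. Per the submitters' processing notes, the aligner was Bowtie2 and the genome build mm8. Which quantifier, annotation and strand setting followed is not given in the sources used here. A deposited file covers 1 library, with estimated counts, FPKM (scaled by the authors to gene length and library size) and a gene length for each gene listed, and a gene that a library does not list was taken as 0. Of 20287 gene IDs, 20234 were named by ID and 9 by accession from the RefSeq table of GRCm38.p6, and 44 kept their ID.

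Estimated counts were rounded and fitted with edgeR 4.0.16 (R 4.3.3, TMM, quasi-likelihood) as 6 group means over 9 libraries, with 3 residual degrees of freedom, for 13990 genes whose FPKM averaged 0.5 or more over the libraries. The spread comes from the KO pairs, and a single WT library is assumed to vary like them. The biological coefficient of variation was 6.52%. The scripts were tested on simulated data. Alternatives used DESeq2 1.42.0, limma 3.58.1 on log2(FPKM + 1) and log2(FPKM + 0.1), quantile normalization, other filters, no TMM factors, the 4 KO libraries alone, a replicate block, each KO library left out, a 2-fold limit and a gene length offset (lowess, span 0.3).

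Lists and members were chosen with earlier results of these data known. The 43 lists held 727 different symbols, of which 670 were tested, 55 fell under the filter and 2 were not matched. A gene was named if it was among the 10 largest rises or falls (called, not overlapping, mean FPKM of at least 5 in the higher group, not a clone or predicted name), a key gene of a list, one of up to 3 further list members with the smallest adjusted p, among the 6 largest differences of responses in each direction under the same limits, or Hbxip. Chac1, Slc7a11, Slc1a4, Vldlr, Pycr1, Atp6v0e and Atp6v1a were named for their promoter letters. Some genes that met the rule are not reported here.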

Additional observations from a re-analysis of the deposited data

Results flagged for a closer look

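In 12 genes the KO response to LIF withdrawal differed from the WT response by a test of the difference itself (edgeR, 2 KO libraries a group and 1 WT library a group), and these were the 6 most positive and 6 most negative differences among the genes that met the limits for naming. The positive differences, as KO minus WT response on the log2 scale, were 9.47 for Mir8114, 4.79 for Stra8, 4.05 for Tnfsfm13, 3.65 for Napsa, 3.55 for Sox1 and 3.54 for Actn3. The negative ones were -10.32 for Mir5113, -8.61 for Rsc1a1, -5.82 for S100a6, -5.57 for Msln, -5.48 for Hand1 and -5.38 for Nefm. The values of Mir8114, Mir5113 and Rsc1a1 rest on KO groups with 0 to 2 counts in both libraries, so their size depends on the prior count and is no bound. The differences of Mir8114, Mir5113 and Tnfsfm13 were not called by DESeq2.

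Napsa, an aspartic protease of lysosome-like vesicles, rose from 2.27 and 1.99 FPKM to 8.91 and 9.04 FPKM in KO cells and went from 16.3 to 5.14 FPKM in WT cells. Actn3, the fast-muscle actinin, rose from 0.80 and 1.25 FPKM to 5.41 and 6.76 FPKM and went from 17.0 to 8.30 FPKM in WT cells. Nefm, a neurofilament subunit, fell from 30.3 and 17.6 FPKM to 3.53 and 2.23 FPKM and went from 1.33 to 6.34 FPKM in WT cells. In each of the 3 the KO and WT libraries lay closer together without LIF than in pluripotent culture.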

How the results depend on the processing

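Calls in the KO response numbered 8280 with edgeR and 6053 with DESeq2, and 6916 to 7754 when 1 KO library was left out. Limited to changes of at least 2-fold they numbered 2429 (145 among the list members) and the differences of responses 1889. Differences numbered 4524 with edgeR, 2374 with DESeq2 and 3648 to 4597 with 1 KO library left out. The length trend of rho 0.43 was 0.306 with no filter, 0.502 at a mean FPKM of at least 2 and 0.0259 with the length correction. With that correction 3835 differences of responses were called. Of 220 called named genes, 167 kept their call in every alternative for the KO response that tested them, other than the 2-fold limit. The filter at a mean FPKM of at least 2 left some named genes untested. Among named genes called in the main or the length-corrected fit, the log2 change turned sign with the correction for Lifr (-0.30), Pou5f1 (0.017), Nes (-0.42), Mtor (-0.18), Tsc1 (-0.28), Ncl (-0.033), Dnmt3l (0.043), Tet1 (-0.38) and Tet2 (-0.23). Genes called in neither fit turned as well, among them Dnmt3b (-0.22), Srebf2 (-0.14), Mdm2 (-0.055) and Cdh2 (-0.044). Quantile normalization turned Zfp42 (0.12), Pou5f1 (0.078), Ctsd (0.016) and Dnmt3l (0.19), and limma on FPKM turned Sall4 (-0.019 with either pseudocount). The cause was not tested for any of them, including Sall4, whose estimated lengths are given above.

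The replicate numbers are shared across the KO groups, but nothing in the labels says that they pair the libraries. The deviations of same-numbered libraries correlated at 0.139 between pluripotent culture and LIF withdrawal. With the replicate block 8750 genes were called in the KO response and 5430 differences of responses. Depth limits the low genes: for T, Fgf8, Sp5 and Wnt3, with at most 8 counts in any KO library compared, no change was detectable.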
